A study of Mus musculus with 35 samples.

Results

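The female gonad, here called ovary, was compared with brain, cerebellum, heart and colon of adult C57BL/6J mice. The series holds 35 samples, of which 29 are short-read RNA-seq libraries. The comparison used 3 ovary libraries and 23 somatic libraries: 6 of brain, 6 of cerebellum and 6 of colon, each with 3 females and 3 males, and 5 of heart with 3 females and 2 males. All groups share the strain and the adult stage, and the labels name no treatment, no genotype beyond the strain, no stage of the oestrous cycle and no animal. Members were all genes that passed a filter on low counts, 26462 of the 55356 genes in the count table, among them 17127 protein-coding genes, 4715 long non-coding RNAs (lncRNAs) and 1597 pseudogenes. Ovary is female by nature while each somatic tissue was averaged over both sexes, so the sex of the ovary libraries was set against a mixed background. RNA came from bulk tissue, and which part of an organ was taken is not given in the sources used here, so fewer cells of a type and less RNA per cell cannot be told apart in any value below.

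The adult ovary stores oocytes, each enclosed in a follicle. Oocytes secrete the zona pellucida that coats the egg and store proteins and RNAs for the early embryo, and they are held in meiotic arrest after recombination has ended. Granulosa cells surround the oocyte, make anti-Müllerian hormone and inhibins, respond to follicle-stimulating hormone and convert androgens to oestradiol. Theca cells make those androgens, and after ovulation the follicle becomes a corpus luteum, which makes progesterone.

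The ovary libraries held 18035978, 24893580 and 28081608 counts, and the somatic libraries 11742417 to 36194255. Levels are given as FPKM, counts scaled to the exon length in kilobases and to the library total. Differences are given as log2 differences of ovary to the mean of the 4 somatic tissues with their standard error (SE), from one edgeR fit, with p-values adjusted over all 26462 genes. Ovary libraries correlated with each other at Spearman's rho of 0.968 to 0.981 across genes, and with heart libraries at 0.858 to 0.888, colon at 0.815 to 0.852, cerebellum at 0.772 to 0.799 and brain at 0.750 to 0.778; genes are not independent replicates. The third principal component, with 5.97% of the variance, set ovary apart from every somatic library.

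The first ovary library stood apart from libraries 2 and 3. Among 17169 genes at 1 CPM or more on average, 1062 were at least 2-fold higher and 560 at least 2-fold lower in library 1 than in the mean of libraries 2 and 3, while 229 and 361 differed as much between libraries 2 and 3. Library 1 held less of the zona, maternal-effect and fat genes and more of the surface epithelium genes, and these values are given with each group below. Female heart library 3 also stood apart, with a summed level of 11 fat genes of 9380 FPKM against 1210 to 1520 FPKM in the other heart libraries. It also held more of the atrial genes, with Myl7 at 1990 FPKM against 6.66 to 76.4 and Nppa at 2770 FPKM against 41.0 to 90.1, and less of the ventricular Myl2, at 8550 FPKM against 15500 to 26300. Counts over all genes are also given without ovary library 1. The number of higher genes was the same without it in the hormone receptor, luteal, gonad regulator, cell division, surface epithelium, fat, endothelial and leukocyte lists described below.

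The label of female gonad was checked against marker genes. All 16 granulosa cell genes of the list used here had counts in each ovary library, and their summed level was 480, 618 and 496 FPKM, against 156 to 218 FPKM in brain, 161 to 245 FPKM in cerebellum and 16.2 to 40.6 FPKM in heart and colon. The 15 theca and steroid genes summed to 2480, 3180 and 3700 FPKM in ovary against 41.5 to 149 FPKM in the somatic libraries. Dmrt1, which maintains the testis identity of Sertoli cells, had no count in any ovary library. Of the genes defining the 4 somatic tissues, Cdx1 and Cdx2 of colon, Nppb of heart, Olig1 of oligodendrocytes and Gabra6, Zic1 and En2 of cerebellum had no count in the 3 ovary libraries. Other members of the same lists did have counts. The 14 cardiac genes summed to 29.8, 31.2 and 25.3 FPKM in ovary, 21.9 to 26.6 FPKM in brain and 26100 to 54700 FPKM in heart. Of these, Tnni3, a troponin of heart muscle, was at 11.5, 11.8 and 9.08 FPKM in ovary and Tnnt2, another troponin, at 6.88, 9.94 and 9.17 FPKM. Mbp, a myelin protein, was at 12.8, 8.06 and 8.46 FPKM in ovary and at 255 FPKM or more in each brain and cerebellum library.

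Ovary was higher than the mean of the 4 somatic tissues for 6994 of 26462 genes, 26.4% of those tested, and lower for 5422, 20.5%. For 2361 further genes edgeR estimated ovary lower by more than 1 in log2 but gave an adjusted p over 0.9, and in each of them at least 1 somatic group had no count. DESeq2 called 1343 of these lower, so the lower counts and shares of every class leave out genes that another tool called. Some genes met the filter on low counts only through ovary, and others only through somatic libraries. They were kept for their counts on that side, which favours a call in that direction. Such genes are described with their levels and without an adjusted p from the main edgeR fit. Of the 26462 genes, 717 (2.7%) met the filter only through ovary, and 534 of these were called higher. Among the other 25745, 6460 were higher. A further 6592 met the filter only through somatic libraries, of which 887 were called lower, leaving 4535 lower among the other 19870. Among protein-coding genes 5040 (29.4%) were higher and 4663 (27.2%) lower. Among lncRNAs 1024 (21.7%) were higher and 541 (11.5%) lower, and among pseudogenes 280 (17.5%) were higher and 69 (4.32%) lower. In DESeq2 the balance turned for both larger classes, with 4509 protein-coding genes higher and 6012 lower and with 849 lncRNAs higher and 1121 lower. For protein-coding genes it also turned in edgeR with DESeq2's size factors, at 4584 higher and 5106 lower. Female libraries alone gave 4039 and 4659 in this class, and a block for library code, described below, 4364 and 4492. Of 2874 genes of other annotated classes 584 (20.3%) were higher and 127 (4.42%) lower, and of 149 unnamed Iso-seq loci 66 (44.3%) were higher and 22 (14.8%) lower. The median log2 difference was -0.04 for protein-coding genes, 0.02 for lncRNAs and 0.36 for pseudogenes, beside 0.03 over all genes tested. Without ovary library 1 the counts were 6135 higher and 4898 lower, and with female libraries alone 5300 higher and 5456 lower. The edgeR calls were 56.3% higher, against 51.7% with DESeq2's size factors in edgeR and 44.1% in DESeq2, which called 6086 genes higher and 7721 lower.

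A mean can hide a tissue that lies above ovary, so each tissue was also tested by itself. Ovary was higher than brain for 8220 genes (31.1%), than cerebellum for 7721 (29.2%), than heart for 6846 (25.9%) and than colon for 7190 (27.2%). It was lower than brain for 8266 genes (31.2%), than cerebellum for 7888 (29.8%), than heart for 5743 (21.7%) and than colon for 6500 (24.6%). Against colon the balance turned in DESeq2, at 6124 higher and 7343 lower. In edgeR it turned with DESeq2's size factors, at 6225 and 7273, and with female libraries alone, at 5212 and 5489. Ovary lay above each of the 4 tissues for 1760 genes, 6.65% of those tested: 1371 protein-coding genes (8.00%), 230 lncRNAs (4.88%) and 48 pseudogenes (3.01%). Leaving out the genes that met the filter only through ovary, 1470 lay above each tissue, 1203 of them protein-coding, 164 lncRNAs and 21 pseudogenes. Ovary lay below each of the tissues for 998 genes (3.77%), of which 865 were protein-coding (5.05%), 94 were lncRNAs (1.99%) and 13 were pseudogenes (0.814%). Apart from those that met the filter only through somatic libraries, 806 lay below each tissue. Of these 732 were protein-coding, 52 lncRNAs and 8 pseudogenes. The other annotated classes gave 89 genes above (3.10%) and 22 below (0.765%), and the unnamed loci 22 (14.8%) and 4 (2.68%). Without ovary library 1, 1585 genes were above and 850 below each tissue, with 195 lncRNAs among those above. With female libraries alone, 1090 genes were above each tissue, 128 of them lncRNAs, and with a block for library code, described with the steroid genes, 143 lncRNAs were.

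**Figure D1:**
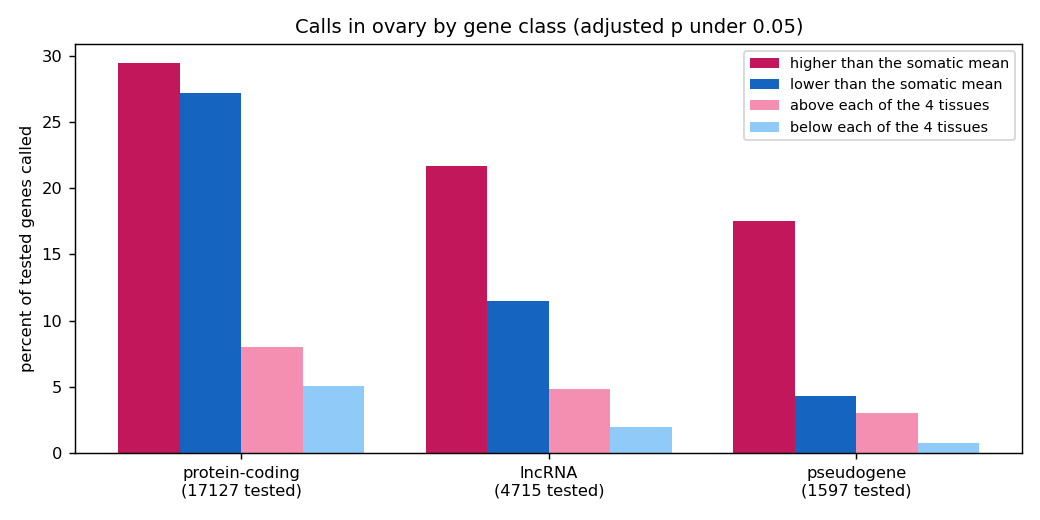
Percent of tested genes called at an adjusted p under 0.05, by gene class, with bars from 0. For protein-coding genes 29.4% were higher and 27.2% lower than the somatic mean. For pseudogenes 17.5% were higher and 4.32% lower.

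In 3292 genes (12.4%) all 3 ovary libraries lay above all 23 somatic libraries in FPKM, and in 303 genes (1.15%) all 3 lay below. The fit also scales libraries by TMM factors, 1.245 to 1.374 in ovary and 0.5423 to 1.0106 in heart, which FPKM leaves out. FPKM thus sets ovary higher against heart than the fit does, and both shares carry that scaling. The protein-coding genes above each tissue had a median ovary level of 12.7 FPKM, against 5.62 FPKM for all protein-coding genes tested. For 1297 of these 1371 genes the ovary libraries lay above every somatic library, against 2622 of all 17127 protein-coding genes tested. The 1371 were picked for being above each tissue, so this and their median level follow in part from that choice. Among the 1371, the somatic tissue with the highest mean was colon for 533, cerebellum for 381, brain for 292 and heart for 165.

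Steroid synthesis genes were among those with the largest differences. Of the 15 theca and steroid genes, 14 were higher in ovary than the somatic mean and 9 lay above each tissue, with none lower, beside 26.4% higher, 6.65% above each tissue and 20.5% lower among all genes tested. Of these, Nr5a1 met the filter only through ovary. The median log2 difference of the list was 3.71, beside 0.03 over all genes. Without ovary library 1, 14 were higher as well. A further fit added as a block the library codes in the labels, grouped by multiples of 10, within each sex. In it 11 of the 15 were higher, and Cyp17a1, Nr5a1 and Hsd3b6 lost their calls (edgeR adjusted p = 1.00 for each). Their fitted log2 differences were 11.03, 13.47 and 2.18 with this block and 11.51, 13.28 and 2.48 without it.

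Hsd3b1, the enzyme that converts pregnenolone to progesterone, was at 840, 873 and 993 FPKM in the ovary libraries (mean 902 ± 80.4, SD, n = 3) and at no more than 0.206 FPKM in any somatic library. It had the largest log2 difference of the genes named by the rule. Its locus lies on chromosome 3 at 98852195 to 98859791 on the minus strand of mm10. A tissue and sex group without any count leaves a fitted difference dependent on the count that the fit adds. For such a gene the difference is given as a lower limit, with the empty groups set to 3 counts per library, which covers counting error only. On that scale Hsd3b1 was higher by at least 14.39 in log2 (adjusted p = 8.64e-23).

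Cyp11a1, which cleaves cholesterol to pregnenolone, was at 1050, 1760 and 1960 FPKM in ovary. The somatic libraries reached 1.09 FPKM at most, and the groups did not overlap. Its log2 difference was 11.79 (SE 0.21, adjusted p = 1.32e-22). Cyp17a1, which makes androgens from progestins, was at 160, 103 and 233 FPKM against at most 0.993 FPKM, a log2 difference of at least 10.91 (adjusted p = 4.54e-18). Library 2 was the lowest of the 3 for this gene and for Star, the protein that carries cholesterol into mitochondria. Star was at 74.5, 36.5 and 57.1 FPKM, with somatic libraries up to 6.55 FPKM (log2 difference 5.08, SE 0.14, adjusted p = 2.44e-18), and its locus overlaps Ash2l.

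The electron donors of the mitochondrial steroid enzymes were higher as well. Fdx1 was at 96.2, 86.4 and 113 FPKM in ovary with tissue means of 2.40 to 10.6 FPKM (log2 difference 3.89, SE 0.14, adjusted p = 1.84e-16). Fdxr was at 56.4, 89.2 and 88.3 FPKM (3.71, SE 0.17, adjusted p = 1.48e-14). Scarb1, the receptor that takes up cholesterol from high-density lipoprotein, was at 74.2, 80.0 and 105 FPKM against at most 16.4 FPKM (4.07, SE 0.15, adjusted p = 2.04e-16). Por, the electron donor of the microsomal enzymes, was not called (log2 difference -0.29, adjusted p = 0.327), and colon had its highest mean, 67.6 FPKM.

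Of 24 genes of cholesterol synthesis and uptake, 4 were higher and 5 lower in ovary, beside 26.4% higher and 20.5% lower among all genes tested, and the median log2 difference was -0.05. Of the 5 lower, 1 met the filter only through somatic libraries. Without ovary library 1, 3 were higher and 2 lower. Scarb1 was the only one above each tissue. The Srebf2 locus joins that gene with Sept3 and 1500009C09Rik, so its value of -1.40 belongs to all of them.

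**Figure D2:**
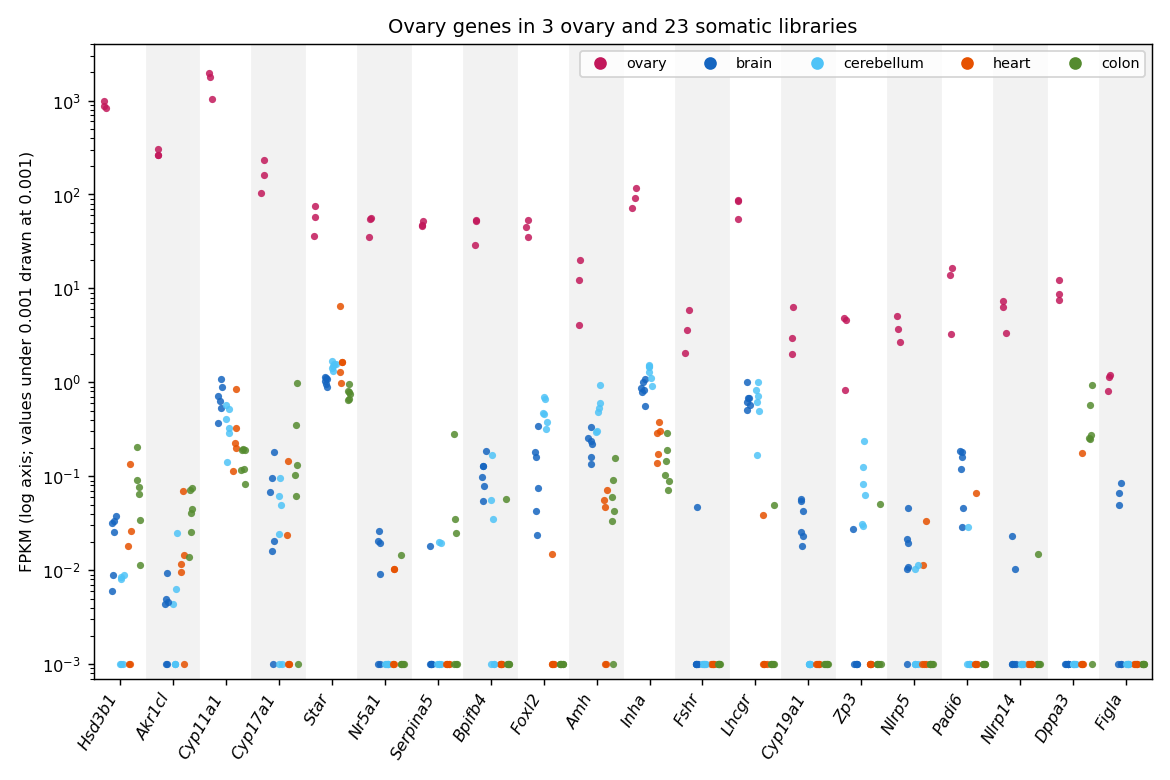
FPKM (log axis) of selected genes of steroid synthesis, granulosa cells and oocytes, in 1 point per library, coloured by tissue. Values near 0 are drawn at the lower end of the axis. Cyp11a1 reached 1960 FPKM in ovary and 1.09 FPKM at most elsewhere.

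The 12 genes with the largest differences also held the aldo-keto reductases Akr1cl and Akr1c18. Akr1cl was at 303, 263 and 266 FPKM in ovary and at no more than 0.0758 FPKM elsewhere (log2 difference 14.22, SE 0.23, adjusted p = 5.85e-23). Its locus on chromosome 1 overlaps the pseudogene Gm8550, which was itself at 39.3, 19.3 and 31.0 FPKM, so reads of both may not be separable if the counting did not use strand. Akr1c18, which inactivates progesterone, was at 223, 124 and 95.9 FPKM, highest in library 1, against at most 3.0 FPKM (at least 8.67, adjusted p = 7.37e-17). Serpina5, a serine protease inhibitor, was at 46.9, 52.2 and 46.6 FPKM (at least 10.55), and Bpifb4 was at 53.4, 28.7 and 51.7 FPKM (at least 8.98). Both met the filter only through ovary. The joined locus Hoxc5/Hoxc8 was at 21.1, 18.5 and 15.6 FPKM, while colon averaged 1.70 FPKM and heart and cerebellum had no count (at least 7.23, adjusted p = 1.24e-10). Hoxc5/Hoxc8 lost its call with the library code block (edgeR adjusted p = 1.00), at a fitted log2 difference of 10.47 against 10.11 without it.

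Granulosa cell genes were mostly higher. Of 16 genes, 15 were higher and 13 lay above each tissue. Of these, 4 met the filter only through ovary: Hsd17b1, Cyp19a1, Fshr and Nr0b1. Among the other 12, 11 were higher and 9 lay above each tissue, beside 26.4% and 6.65% of all genes tested. The counts of higher genes were the same without ovary library 1. Kitl, the ligand by which granulosa cells support the oocyte, was not called, at 25.2, 13.3 and 16.9 FPKM in ovary beside a cerebellum mean of 19.5 FPKM (log2 difference 0.24, adjusted p = 0.303).

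Foxl2, the transcription factor that maintains granulosa cell fate, was at 35.1, 53.9 and 45.3 FPKM against at most 0.692 FPKM, a level reached in cerebellum (at least 8.59, adjusted p = 2.58e-16). Inha, the inhibin alpha subunit, was at 71.0, 117 and 92.2 FPKM (log2 difference 7.26, SE 0.17, adjusted p = 3.07e-20). The beta subunits were nearer to the other tissues: Inhba was at 64.0, 38.5 and 19.4 FPKM (5.01, SE 0.24) and Inhbb at 25.6, 41.9 and 21.5 FPKM (4.52, SE 0.23). Inhba was highest in library 1, the reverse of Amh, anti-Müllerian hormone, which was at 4.04, 20.2 and 12.2 FPKM (6.12, SE 0.34, adjusted p = 3.93e-13). Its receptor Amhr2 varied little, at 53.7, 54.1 and 44.9 FPKM (7.90, SE 0.20, adjusted p = 2.09e-19).

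The enzymes that complete oestradiol synthesis differed in level. Hsd17b1, which reduces oestrone, was at 37.2, 57.6 and 44.4 FPKM against at most 0.304 FPKM, a log2 difference of 9.24 (SE 0.33). Cyp19a1, the aromatase, was at 2.94, 6.29 and 2.01 FPKM, and brain was the only somatic tissue with counts, at a mean of 0.0370 FPKM (at least 6.34). Fshr, the receptor of follicle-stimulating hormone, was at 2.04, 5.84 and 3.59 FPKM and had 3 counts in all 23 somatic libraries together (at least 5.79). With the library code block 13 of the 16 granulosa genes were higher. DESeq2 also called 13 higher, with Fshr and Nr0b1 over its threshold at adjusted p-values of 0.0781 and 0.0768, and it called 10 of the hormone receptors below higher.

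Of 15 hormone receptors tested, 11 were higher, 9 lay above each tissue and 2 were lower, with a median log2 difference of 3.04, beside 26.4% higher, 6.65% above each tissue and 20.5% lower among all genes tested. Fshr was the member that met the filter only through ovary. Lhcgr, the receptor of luteinizing hormone, was at 55.0, 87.4 and 84.6 FPKM against at most 1.02 FPKM (at least 8.37, adjusted p = 3.85e-17). Esr1 and Esr2, the oestrogen receptors, were at 24.1 to 26.2 FPKM and 14.4 to 20.4 FPKM across the ovary libraries. The difference was 4.13 (SE 0.32) for Esr1, and at least 7.32 for Esr2. Nr3c2, the mineralocorticoid receptor, was below each tissue at 4.69, 3.22 and 3.11 FPKM with a colon mean of 38.8 FPKM (-2.19, SE 0.17, adjusted p = 1.25e-10).

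Of 12 luteal genes, 8 were higher and all 8 lay above each tissue, 3 were not called and 1 was lower, beside 26.4%, 6.65% and 20.5% of all genes tested that were higher, above each tissue and lower. The luteal list shares Cyp11a1 and Star with the theca and steroid list, and Lhcgr with the hormone receptors and the ovulation genes. Prlr, the prolactin receptor, was at 19.6, 23.5 and 30.9 FPKM on a locus joined with Gm21973 (log2 difference 3.34, SE 0.36, adjusted p = 3.38e-08). Ptgfr, the receptor of prostaglandin F2 alpha that ends the life of the corpus luteum, was at 14.3, 17.7 and 22.0 FPKM (3.44, SE 0.24, adjusted p = 2.44e-11). Sfrp4, a secreted Wnt antagonist, was at 42.0, 78.5 and 111 FPKM against at most 2.40 FPKM (6.17, SE 0.33, adjusted p = 2.25e-13). Parm1 lay below each tissue at 4.65, 4.27 and 4.08 FPKM (-2.27, SE 0.17, adjusted p = 1.16e-10).

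Genes of ovulation and cumulus expansion, the receptor gene Lhcgr among them, were not uniformly raised. Of 12 tested, 7 were higher, 2 were lower and 3 were not called, and Lhcgr and Ptx3 alone lay above each tissue. Over all genes tested 26.4% were higher, 20.5% lower and 6.65% above each tissue. Leaving out ovary library 1, 6 of the 12 were higher. Ptgs2, the inducible prostaglandin synthase, was at 0.0605, 0.0439 and 0.0544 FPKM in ovary, below all 23 somatic libraries (log2 difference -4.80, SE 0.38), and met the filter only through somatic libraries. Tnfaip6, which stabilises the cumulus matrix, was at 0.300, 0.508 and 1.11 FPKM and below each tissue (-2.45, SE 0.33, adjusted p = 1.31e-06). Ptx3, another matrix protein of the cumulus, was at 3.35, 2.77 and 2.68 FPKM and higher (4.26, SE 0.35, adjusted p = 4.16e-10). Areg was not called, at 0.274, 0.165 and 0 FPKM beside a colon mean of 18.8 FPKM.

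Regulators of the gonad of either sex, a list of transcription and chromatin factors with the secreted proteins Wnt4 and Rspo1 and the receptor Pdgfra, were mostly higher. Of 15 tested, 14 were higher and 11 lay above each tissue, with a median log2 difference of 5.80, beside 26.4% higher and 6.65% above each tissue among all genes tested. With the library code block 11 were higher, and those that lost their calls included Nr5a1 and Gata4. Nr5a1, steroidogenic factor 1, on a locus that overlaps Nr5a1os, was at 35.7, 56.4 and 54.5 FPKM and had 12 counts in all somatic libraries together (at least 11.00), so that it met the filter only through ovary. Wt1 was at 90.7, 68.3 and 62.4 FPKM, with heart libraries up to 17.9 FPKM (log2 difference 7.51, SE 0.31, adjusted p = 2.17e-15). Gata4 was at 44.1, 57.1 and 47.0 FPKM, and against heart, with a mean of 19.6 FPKM, its log2 difference was 0.33 (adjusted p = 0.412). Sox9, the testis-determining factor downstream of Sry, was lower than the somatic mean at 1.55, 1.49 and 2.18 FPKM beside a cerebellum mean of 35.4 FPKM (-2.48, SE 0.25, adjusted p = 1.12e-08).

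Among 22 ligands and inhibitors of the TGF-beta family, 14 were higher and 4 lower, and 7 lay above each tissue, beside 26.4%, 20.5% and 6.65% of all genes tested. The counts were 15 higher and 3 lower without ovary library 1. Fst, which binds activin, was at 7.66, 17.1 and 10.5 FPKM (log2 difference 4.47, SE 0.30, adjusted p = 1.36e-11). Tgfb3 was at 42.4, 43.1 and 39.6 FPKM (1.78, SE 0.11, adjusted p = 5.44e-12). Nog, an inhibitor of bone morphogenetic proteins, was lower (-1.52, SE 0.47, adjusted p = 0.00948), a call lost without ovary library 1 (-1.11, edgeR adjusted p = 0.0762).

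Oocyte genes were low in level and large in difference. Of 11 maternal-effect genes tested, which store proteins for the early embryo, all 11 were higher and above each tissue. Of 10 oocyte transcription and chromatin factors, 10 were higher and 8 lay above each tissue. Of 9 zona and secreted factors tested, 8 were higher and above each tissue. Over all genes tested 26.4% were higher and 6.65% above each tissue. Of these genes, 7, 7 and 6 met the filter only through ovary, which favours a higher call. Among the others, all 4 maternal-effect genes were higher and above each tissue, all 3 factors were higher and 1 lay above each tissue, and of 3 zona and secreted genes 2 were higher and above each tissue. Without ovary library 1, 11, 8 and 8 were higher. DESeq2 called 8, 6 and 6 higher; Nlrp2, Omt2b, Figla, Obox5 and Oosp3 missed its threshold, and it gave no adjusted p for 4 others. With the library code block 7, 4 and 2 were higher in edgeR.

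The zona pellucida genes were near or under 5 FPKM. Zp3, which encodes a sperm-binding zona protein, was at 0.838, 4.58 and 4.82 FPKM (at least 5.42). Zp1 was at 0.364, 2.49 and 2.14 FPKM (at least 4.80), and Zp2 at 2.56, 4.72 and 5.74 FPKM (at least 5.61, adjusted p = 2.72e-10). In each of them library 1 was the lowest. Zp1 and Zp3 met the filter only through ovary. Zp2 lost its call with the library code block (edgeR adjusted p = 1.00), at a fitted log2 difference of 6.14 against 6.08 without it. All 10 zona and secreted genes were lowest in library 1, as were 11 of 12 maternal-effect genes, with a median log2 ratio of library 1 to the mean of the other libraries of -2.24 and -1.32.

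Padi6, needed for the cytoplasmic lattices of the egg, was at 3.31, 16.6 and 13.8 FPKM (at least 7.41, adjusted p = 2.36e-11). Nlrp14 was at 3.32, 7.27 and 6.42 FPKM (at least 7.82), and Nlrp5, a component of the subcortical maternal complex, at 2.67, 3.73 and 5.07 FPKM (at least 7.36). The transcription factor Nobox was at 1.35, 2.90 and 2.41 FPKM (at least 6.36). Dppa3, which protects the maternal genome after fertilization, went the other way among libraries, at 12.4, 8.67 and 7.47 FPKM (at least 5.38, adjusted p = 4.98e-09). Figla, which activates the zona genes, was at 1.19, 0.817 and 1.15 FPKM and was also highest in library 1. Nlrp14, Nlrp5, Nobox and Figla met the filter only through ovary. Dppa3 lost its call with the library code block (edgeR adjusted p = 1.00), at a fitted log2 difference of 8.49 against 8.17 without it.

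Gdf9 was the exception among the oocyte-secreted factors. It was lower than the somatic mean (log2 difference -1.07, SE 0.26, adjusted p = 0.00119), at 23.2, 40.7 and 33.6 FPKM in ovary beside a heart mean of 176 FPKM. Its locus overlaps Uqcrq, a subunit of respiratory complex III, so the value is uncertain as a measure of Gdf9. Bmp15, its partner, was at 0.706, 3.36 and 4.52 FPKM against at most 0.445 FPKM and above each tissue (at least 4.60, adjusted p = 1.63e-08).

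Genes of RNA storage and of meiosis were divided. Of 12 genes of oocyte RNA control and meiotic arrest, 7 were higher and 1 was lower, and 4 of the higher ones met the filter only through ovary, Mos, Btg4 and Rfpl4 among them. Mos, the kinase that holds the egg at metaphase, was at 0.230, 1.61 and 1.33 FPKM (at least 4.32). Btg4 was at 0.954, 3.55 and 2.48 FPKM (at least 6.27). Cpeb1, which controls the translation of stored RNAs, was lower at 1.64, 2.08 and 2.36 FPKM with a brain mean of 10.8 FPKM (-1.47, SE 0.16, adjusted p = 3.39e-08). Of 13 tested genes of the meiotic chromosome axis and recombination, 3 were higher, 2 lower and 8 not called, beside 26.4% higher and 20.5% lower among all genes tested, and none lay above each tissue. Of the 13, 8 met the filter only through somatic libraries, 1 of the 2 lower genes among them. Hormad1 and Spo11 had no count in the ovary libraries.

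Promoter sequences from RefSeq on GRCm38.p6 were searched for a pair of motifs, each window running from 250 bases before to 50 bases after a gene's start. The E-box CAGGTG, of the kind that FIGLA and related factors bind, was found on either strand in 17 of 36 windows of the oocyte genes (47.2%), against 6640 of 32851 windows of all genes (20.2%). The 36 windows belong to 32 of the 44 oocyte genes. In the granulosa, theca and luteal genes it was found in 6 of 36 windows (16.7%), and in protein-coding genes above each tissue in 229 of 1217 (18.8%). The NR5A1 element, AAGGTCA or AAGGCCA on either strand, was found in 3 of 36 windows of the granulosa, theca and luteal genes (8.33%), against 3484 of all windows (10.6%). A match describes letters and not a bound site, and the shares were not tested.

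The windows of 5 oocyte genes that hold the E-box and of Amhr2, which holds the NR5A1 element, are shown because their genes lie above each tissue; they were chosen after the matches were seen. Capitals mark the matches, CAGGTG or its reverse complement CACCTG for the oocyte genes, and AAGGTCA or AAGGCCA for the NR5A1 element, which Padi6 also holds. The E-box nearest the start begins at -55 in Zp3, -59 in Oosp1, -65 in Rfpl4, -50 in Nobox and -78 in Padi6, counted in bases from the start of the gene. The NR5A1 element begins at -19 in Padi6 and at -231 in Amhr2.
Zp3, chr5:135979855-135980154, plus strand: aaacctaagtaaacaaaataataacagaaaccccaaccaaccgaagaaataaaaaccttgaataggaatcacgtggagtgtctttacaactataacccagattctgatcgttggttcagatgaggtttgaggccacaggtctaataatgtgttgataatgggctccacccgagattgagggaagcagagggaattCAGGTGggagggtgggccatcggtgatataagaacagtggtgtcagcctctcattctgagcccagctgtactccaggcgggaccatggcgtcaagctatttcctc
Oosp1, chr19:11691002-11691301, minus strand: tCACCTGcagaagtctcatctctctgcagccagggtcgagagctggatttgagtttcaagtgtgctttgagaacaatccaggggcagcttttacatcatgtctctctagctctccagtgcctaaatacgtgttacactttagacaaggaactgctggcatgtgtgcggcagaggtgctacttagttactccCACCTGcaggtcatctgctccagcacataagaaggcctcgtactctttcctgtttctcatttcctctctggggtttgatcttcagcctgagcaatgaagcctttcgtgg
Rfpl4, chr7:5116862-5117161, minus strand: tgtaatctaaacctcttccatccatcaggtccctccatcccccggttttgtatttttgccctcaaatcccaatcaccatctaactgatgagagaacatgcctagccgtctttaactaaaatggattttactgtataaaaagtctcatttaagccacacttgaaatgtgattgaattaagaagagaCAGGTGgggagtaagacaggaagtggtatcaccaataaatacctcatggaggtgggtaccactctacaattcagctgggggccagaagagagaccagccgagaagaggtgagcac
Nobox, chr6:43309505-43309804, minus strand: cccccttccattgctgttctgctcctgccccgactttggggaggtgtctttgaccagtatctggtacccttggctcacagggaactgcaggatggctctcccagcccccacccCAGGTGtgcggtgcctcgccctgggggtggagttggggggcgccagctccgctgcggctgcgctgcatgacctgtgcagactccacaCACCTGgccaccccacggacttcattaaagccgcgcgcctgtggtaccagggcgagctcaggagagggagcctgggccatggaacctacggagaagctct
Padi6, chr4:140742594-140742893, minus strand: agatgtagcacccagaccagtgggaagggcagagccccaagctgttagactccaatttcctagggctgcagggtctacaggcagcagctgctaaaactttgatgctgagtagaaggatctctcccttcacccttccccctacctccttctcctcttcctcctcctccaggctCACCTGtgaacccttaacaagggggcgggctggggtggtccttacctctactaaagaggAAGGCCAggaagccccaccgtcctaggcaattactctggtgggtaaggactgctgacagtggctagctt
Amhr2, chr15:102445117-102445416, plus strand: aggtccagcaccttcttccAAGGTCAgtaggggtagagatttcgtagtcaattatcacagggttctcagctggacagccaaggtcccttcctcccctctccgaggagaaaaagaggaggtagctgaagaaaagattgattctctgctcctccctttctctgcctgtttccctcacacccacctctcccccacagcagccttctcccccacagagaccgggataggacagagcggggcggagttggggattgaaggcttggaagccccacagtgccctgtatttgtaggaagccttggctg

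Beside the windows shown, Oosp1 was at 0.913, 4.22 and 3.19 FPKM in ovary and Rfpl4 at 1.10, 7.19 and 6.70 FPKM. Both were lowest in library 1, as were Zp3, Nobox and Padi6. Amhr2 differed less between libraries, at 44.9 to 54.1 FPKM.

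**Figure D3:**
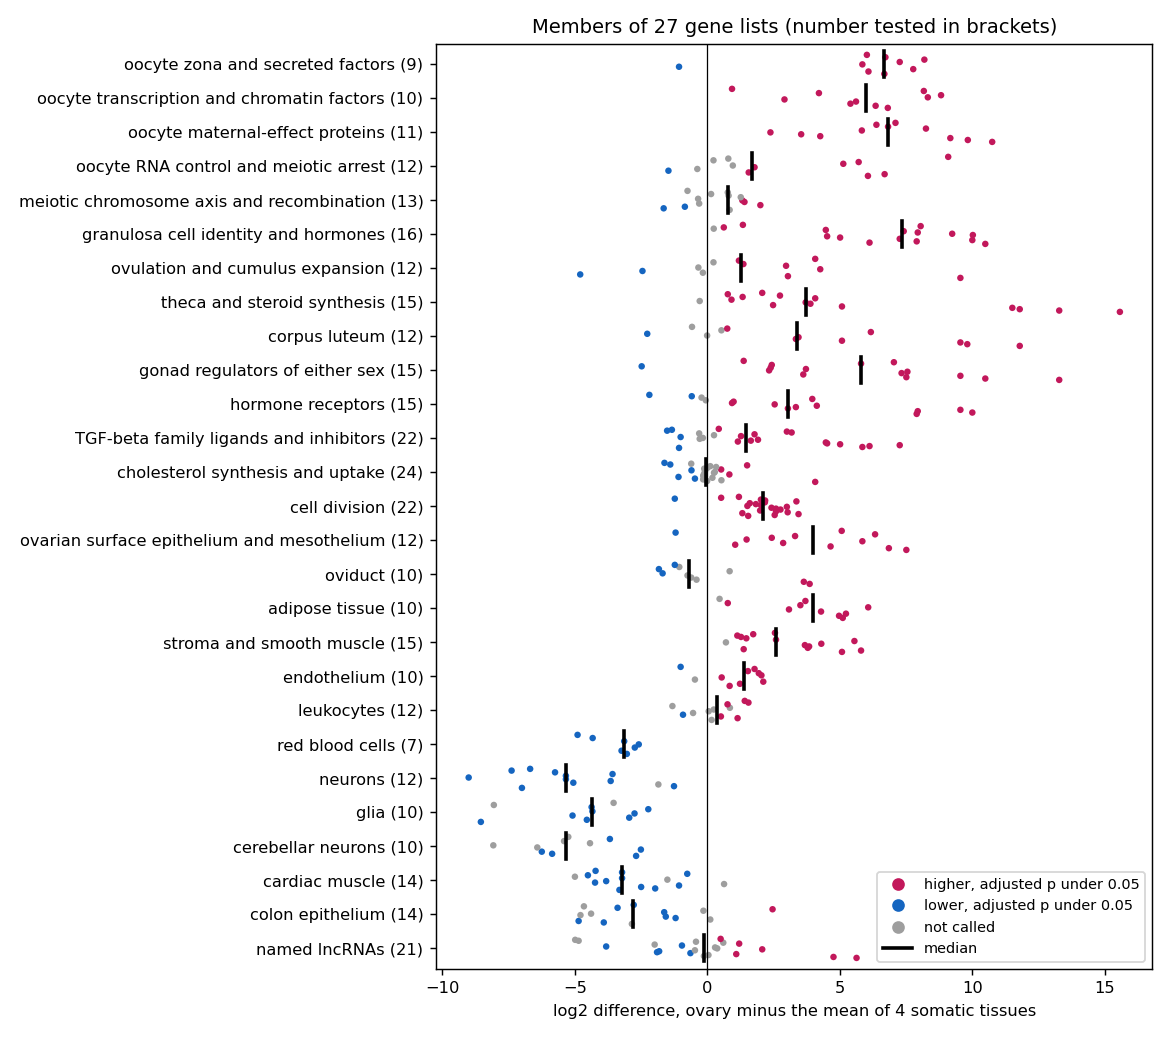
Log2 difference of ovary to the mean of 4 somatic tissues for each tested member of 27 gene lists, with the number tested in brackets and the median as a black bar; colours give the call at an adjusted p under 0.05. All 11 maternal-effect genes and all 16 granulosa genes lie to the right of 0, 7 and 4 of which met the filter only through ovary, and all 12 neuron genes lie to the left.

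LncRNAs above each tissue numbered 230, of which 66 met the filter only through ovary. Their median ovary level was 2.97 FPKM against 0.508 FPKM for all lncRNAs tested. In 214 of the 230 the ovary libraries lay above all somatic libraries, against 396 of all 4715 lncRNAs tested. The 230 were picked for being above each tissue, so both values follow in part from that choice. Foxl2os, transcribed from the strand opposite Foxl2 on chromosome 9, was at 10.3, 11.9 and 12.2 FPKM (at least 7.08, adjusted p = 4.76e-14). It overlaps Foxl2, and cerebellum was the highest somatic tissue for both, at 0.191 FPKM for the lncRNA and 0.499 FPKM for the coding gene. Gm48140, which overlaps Greb1 on chromosome 12, was at 21, 35.4 and 24.4 FPKM (at least 6.70, adjusted p = 5.09e-16).

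1700016F12Rik lies on chromosome 5 at 96849505 to 96852938 and overlaps no other locus. It was at 7.62, 8.34 and 7.01 FPKM in ovary and had no count in the 23 somatic libraries, so that it met the filter only through ovary (at least 4.73). Gm16081 also had no somatic count, but it varied in ovary from 7.21 FPKM in library 1 to 2.23 and 1.09 FPKM in the others (at least 3.62). C86187, at 1.01, 5.62 and 6.33 FPKM, and 4933427D06Rik, at 0.285, 2.16 and 2.0 FPKM, were lowest in library 1 like most oocyte genes (at least 6.94 and 5.48). C86187 overlaps the pseudogene Gm31941, which had the same order of libraries at 1.27, 9.64 and 9.56 FPKM. Gm16081, C86187 and 4933427D06Rik also met the filter only through ovary.

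The nearest protein-coding gene lay within 10 kb for 152 of the 230, and in 89 of those (58.6%) that gene was itself above each tissue, against 178 of 3337 (5.33%) for the other lncRNAs tested. Of the 89, 72 overlapped the coding gene, where shared reads cannot be told apart unless strand was used in counting. Without overlap, the shares were 17 of 50 (34.0%) and 69 of 896 (7.70%). All these shares keep genes that met the filter only through ovary. Such genes were 66 of the 230 lncRNAs and 168 of the 1371 protein-coding genes above each tissue. The shares were not tested.

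Of 21 lncRNAs of wide use as markers, 6 were higher, 5 lower and 10 not called, beside 21.7% higher and 11.5% lower among all lncRNAs tested. Of the 5 lower, 1 met the filter only through somatic libraries. Without ovary library 1, 4 were higher. With female libraries alone 4 were higher and 9 lower, and DESeq2 called 5 higher and 9 lower. Xist, which silences an X chromosome in female cells, was at 103, 39.8 and 57.7 FPKM in ovary, 10.9 to 163 FPKM in the female somatic libraries and at most 0.0861 FPKM in the male ones. Tsix runs across it on the other strand. The log2 difference of Xist was 5.63 (SE 0.26, adjusted p = 2.06e-14), and with female libraries alone it was 0.49 (edgeR adjusted p = 0.229). Malat1, a nuclear lncRNA, was at 2900, 987 and 1190 FPKM, highest in library 1, with somatic libraries up to 1110 FPKM (1.09, SE 0.23, adjusted p = 3.69e-04). Without library 1 the difference of Malat1 was 0.53 (edgeR adjusted p = 0.0945). Gas5, the host of many small nucleolar RNAs, lay above each tissue at 47.6, 23.7 and 23.5 FPKM (1.20, SE 0.15, adjusted p = 5.99e-07).

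Pseudogenes above each tissue numbered 48, of which 27 met the filter only through ovary and 8 had no somatic count. Gm8550 on chromosome 1 is described above beside Akr1cl, which it overlaps. Its difference was at least 7.10. Vmn2r-ps21, related to vomeronasal receptors, lies on chromosome 5 at 108872655 to 108892380. It was at 1.26, 0.832 and 0.967 FPKM and had no somatic count (at least 3.98). Both met the filter only through ovary.

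Among the protein-coding genes above each tissue, ordered by level, Eef1a1 came first. Eef1a1, the elongation factor that brings tRNA to the ribosome, was at 3470, 3950 and 3420 FPKM (log2 difference 1.52, SE 0.13, adjusted p = 6.08e-10). Cyp11a1 came next. The top 8 of these coding genes also held the ribosomal proteins Rps4x, Rps12, Rpsa, Rps9 and Rpl3, with differences of 1.25 to 1.45. Rps4x was at 1820, 1540 and 1260 FPKM, with somatic libraries at 685 FPKM or less.

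A list of 76 ribosomal protein genes was drawn up after these values were seen. In it 73 were higher in ovary and 27 lay above each tissue, beside 26.4% and 6.65% of all genes tested, with a median log2 difference of 1.11 beside 0.03 (without ovary library 1, 65 and 0.98), while Rpl3l, a form found in heart, was lower. The gene was highest in ovary library 1 for 56 of the 76. Scaled by DESeq2's size factors, 72 were higher and the median was 1.03. Many ribosomal protein genes have processed copies, and reads shared with a copy may be counted for either or for none. Eef1a2, the paralog of Eef1a1 in neurons and muscle, was at 0.734, 0.532 and 0.542 FPKM and had the most negative difference of the coding genes named by the rule (-9.14, SE 0.42, adjusted p = 1.54e-14), with a heart mean of 1260 FPKM and a colon mean of 5.34 FPKM.

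Cell division genes were higher as a group. Of 22, 21 were higher and 9 lay above each tissue, colon included, beside 26.4% and 6.65% of all genes tested, with a median log2 difference of 2.10. Cdk1, the mitotic kinase, was at 23.9, 26.1 and 22.5 FPKM beside a colon mean of 8.46 FPKM (3.44, SE 0.18, adjusted p = 1.72e-13). Mki67, a marker of cycling cells, was at 9.04, 5.06 and 4.64 FPKM and below the colon mean of 13.4 FPKM, although above the mean of tissues (1.54, SE 0.34, adjusted p = 5.00e-04). Ccne1, which drives entry into S phase, was the lower one (-1.23, SE 0.19, adjusted p = 8.52e-06).

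Genes of other cells in and around the ovary moved with these groups, and their part in the differences above was not tested. Over all genes tested 26.4% were higher and 20.5% lower. Surface epithelium and mesothelium genes were higher for 11 of 12, and 4 lay above each tissue. All 12 were highest in library 1 of the ovary libraries, with summed levels of 810, 531 and 439 FPKM in ovary and 1550 to 3100 FPKM in colon. Krt8 and Krt19 lay under the arithmetic mean of the 4 tissues, at 39.9 against 343 FPKM and 146 against 219 FPKM. Bnc1, a mesothelial transcription factor, was at 11.1 and 7.78 FPKM in libraries 2 and 3 and higher still in library 1, and heart libraries reached 9.26 FPKM. Fat genes were higher for 9 of 10 tested, with summed levels of 78.1, 897 and 560 FPKM in ovary, 1210 to 9380 FPKM in heart and 149 to 1040 FPKM in colon. Adipoq was at 5.08, 74.9 and 47.8 FPKM, and Ucp1 of brown fat had no count in ovary. Without female heart library 3, 10 fat genes were higher, and with female libraries alone, or with the library code block, 5 were. With that block Adipoq had a log2 difference of 6.08 (edgeR adjusted p = 0.0642) against 5.11 without it, and Cidec one of 4.73 (edgeR adjusted p = 0.189) against 4.29. The differences are to a mean on the log scale. Against the arithmetic mean of the 4 tissues Adipoq, Cidec, Car3, Cfd, Fabp4 and Lpl, all called higher, lay lower in ovary. Adipoq was at 42.6 against 47.2 FPKM and Fabp4 at 104 against 237 FPKM.

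**Figure D4:**
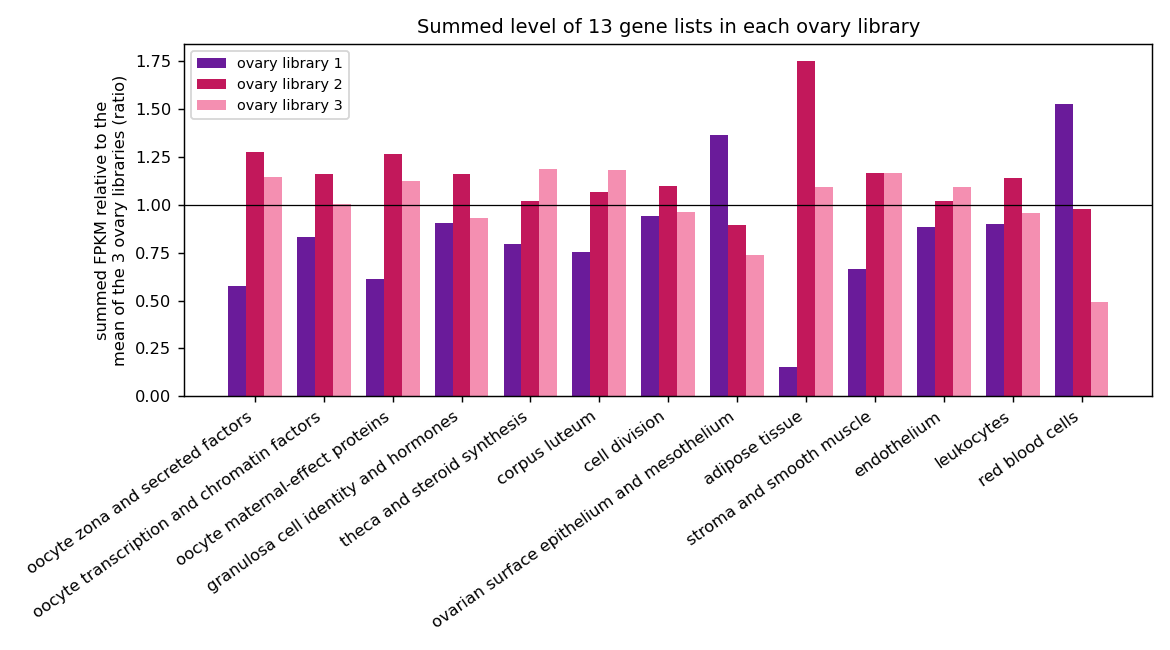
Summed FPKM of gene lists in each ovary library, as a ratio to the mean of the 3, with bars from 0. Library 1 is lowest for fat genes (78.1 against 897 and 560 FPKM) and for oocyte zona genes (29.9 against 65.9 and 59.3 FPKM, of which Gdf9 is the largest part), and highest for surface epithelium genes (810 against 531 and 439 FPKM).

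Stroma and smooth muscle genes were higher for 14 of 15, summing to 2550, 4460 and 4470 FPKM in ovary and up to 16100 FPKM in colon. This list also holds Star, counted with the steroid genes, and Pdgfra and Tcf21, counted with the gonad regulators. Its smooth muscle genes Actg2, Cnn1 and Myh11 also lay under the arithmetic mean of the tissues. Endothelial genes were higher for 8 of 10 and leukocyte genes for 5 of 12, with 1 lower in each list. Oviduct genes were higher for 2 of 10 and lower for 3, beside 26.4% higher and 20.5% lower among all genes tested. Of the 10, 3 met the filter only through somatic libraries, 1 of the lower genes among them. Ovgp1, the oviduct glycoprotein, was at 1.67, 0.846 and 2.0 FPKM (log2 difference 3.86, SE 0.39, adjusted p = 1.50e-08), while the ciliary gene Foxj1 was at 0.141, 0.628 and 0.329 FPKM. Red blood cell genes were lower for 7 of 7, of which 1 met the filter only through somatic libraries. Their summed levels were 106 to 328 FPKM in ovary and 26.6 to 91.1 FPKM in colon.

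Among the genes below each tissue that the rule named, Aqp4, the water channel of astrocytes, was at 0.0154 to 0.0410 FPKM in ovary and 86.8 FPKM on average in cerebellum (log2 difference -8.55, SE 0.58). Cyp3a13 was at 0 to 0.0136 FPKM beside a colon mean of 175 FPKM (-7.67, SE 0.64). Chrm2, the muscarinic receptor of heart and gut, was at 0.101, 0.00664 and 0.0824 FPKM (-6.75, SE 0.58, adjusted p = 8.16e-10). The lncRNA 9330158H04Rik overlaps it and had no count in ovary, with tissue means of 0.226 to 2.52 FPKM, a fall of at least 5.93 in log2. Aqp4, Cyp3a13 and 9330158H04Rik met the filter only through somatic libraries. Car4, a carbonic anhydrase, was at 0.0458, 0.432 and 0.589 FPKM beside 290 FPKM in colon.

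Neuron genes were lower for 11 of 12, glial genes for 8 of 10, cardiac genes for 11 of 14 and cerebellar genes for 5 of 10, beside 20.5% of all genes tested. Of these lower genes, 3, 2, 1 and 1 met the filter only through somatic libraries. Colon epithelium genes were lower for 7 of 14, while Zg16 was higher than the mean at 1.72, 1.12 and 1.56 FPKM, far under its colon mean of 469 FPKM and under the arithmetic mean of the tissues of 117 FPKM, a call lost with the library code block (edgeR adjusted p = 1.00). Of the 7 lower colon genes, 3 met the filter only through somatic libraries. Zic1, Olig1, Gabra6 and Cdx1 were among the 2361 genes with a lower estimate and an adjusted p over 0.9. By DESeq2, 12 of 12 neuron genes, 10 of 10 glial, 10 of 10 cerebellar, 12 of 14 cardiac and 11 of 14 colon genes were lower.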

How the data were processed

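RNA-seq libraries were made from total RNA after removal of ribosomal RNA, with a stranded kit. The authors deposited raw counts per gene, made from reads aligned to mm10 with HISAT2 2.0.5, of which uniquely mapped reads were kept, and counted with featureCounts 1.6.3 on an Iso-seq annotation merged with ENSEMBL 98 (quality control with FastQC 0.11.8 and MultiQC 0.9, per the labels and the study's methods). Whether featureCounts was run with strand is not given in the sources used here. Of 13045 Iso-seq loci, 565 join several ENSEMBL genes, and 13605 of the 55356 genes had no count in the 26 libraries.

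Groups were taken from the labels, giving 9 tissue and sex groups. One edgeR 4.0.16 quasi-likelihood fit (R 4.3.3) on the counts used TMM scaling and filterByExpr, with the contrast of ovary to the equal-weight mean of the 4 somatic tissues and 4 contrasts to single tissues. P-values were adjusted by the Benjamini-Hochberg method over all genes tested and called under 0.05. SE was derived from the log2 difference and its F statistic. FPKM was computed from the counts, the library total and the union exon length, without the TMM factors. Nothing in the labels ties libraries to animals, so p-values measure the spread between these libraries, which may be partly technical. Intervals and limits from 3 counts cover counting error only.

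Named genes were the 12 protein-coding genes, 6 lncRNAs and 3 pseudogenes with the largest difference among genes above each tissue without overlap of libraries, at 5 FPKM or more in ovary (1 FPKM for lncRNAs and pseudogenes). The 8 coding genes and 3 lncRNAs with the most negative difference among those below each tissue, the 8 coding genes of highest level above each tissue, and the members of 27 lists from textbook knowledge (352 of 353 symbols found) were added. Some lists share genes, so their counts are not independent. Members and lists were chosen with earlier results of these data known. Alternatives were DESeq2 1.42.0, its size factors in edgeR, no filter, all 29 libraries, female libraries alone, blocks, a minimum log2 difference of 1, an arithmetic mean and each library left out. Some genes that the rule names are not reported here.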

Additional observations from a re-analysis of the deposited data

How the results depend on the processing

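Against the arithmetic mean of the tissue means in place of the mean on the log scale, 15 of 290 genes of the rule and lists that edgeR called turned direction, all of them called higher, among them Zg16, Adipoq and Cidec; 6689 genes remained higher and 5314 lower. None of the 290 changed sign in the other alternatives run, but the balance of the counts did turn. DESeq2 called 6086 genes higher and 7721 lower, and female libraries alone gave 5300 and 5456, against 6994 and 5422. Requiring a log2 difference of at least 1 left 4363 genes higher and 3328 lower. DESeq2 called 849 lncRNAs higher and 1121 lower, against 1024 and 541 in edgeR; 433 of the 1121 were among 748 lncRNAs that edgeR estimated lower by more than 1 in log2 with an adjusted p over 0.9. With female libraries alone, 1090 genes lay above each tissue, 888 protein-coding genes and 128 lncRNAs among them; this fit has fewer libraries. With the library code as a block within sex, 143 lncRNAs lay above each tissue, and 49 single genes lost their call, 38 of them with an adjusted p over 0.9, among them Nr5a1, Cyp17a1, Zp1 and Zp2. The fitted log2 differences of these 38 kept their sign and moved by -0.83 to 0.73, and 34 of them had a somatic group without a count; the cause was not tested. DESeq2's size factors lowered the median log2 difference by 0.08 and gave 6348 higher and 5938 lower genes.

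With 1 library left out, 5786 to 7511 genes were higher and 4782 to 5688 lower, 1428 to 1875 lay above each tissue and 823 to 1121 below. For protein-coding genes these ranges were 4262 to 5336 higher, 4160 to 4912 lower and 1127 to 1446 above each tissue, and for lncRNAs 821 to 1111, 461 to 552 and 171 to 258. The replicate numbers did not pair the libraries: over 45 pairs with the same number the correlation of deviations ran from -0.274 to 0.0981. With the replicate block within sex 6669 genes were higher, 5233 lower, 1537 above and 931 below each tissue. Of the single-gene values under settings other than a left-out library, 2445 kept their side of the threshold, 86 lost it and 48 gained it.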
